A study of Mus musculus with 6 samples.

Results

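The retinoid genes examined here make, bind and break down retinoic acid, or carry and take up retinol, from which it is made. The set has 9 genes, chosen by name with earlier results of these data known, and every probe annotated with one of these symbols was used. Of the 9, 8 had a probe among the 20289 on the array, 1 probe each. They were Aldh1a1, Aldh1a2, Aldh1a3, Cyp26a1, Crabp1, Crabp2, Rbp4 and Stra6. Cyp26b1 was not listed with a probe in the annotation and was not analysed here. All 8 probes passed the filter on low values, which used the mean over all arrays, and none had a value at or below 0.

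The tissue was mouse urogenital ridge at E11.5, from embryos with 11 to 12 tail somites, just before the gonads of the sexes diverge. Wild-type embryos of the Mf1 strain (WT) were set against Mf1 embryos homozygous for a deletion of Wt1 (KO), the gene of a zinc finger transcription factor that the ridge needs to form gonads and kidneys. The question put to the arrays was which transcripts differ when Wt1 is missing. Each genotype had 3 single-colour oligonucleotide arrays, each labelled as 5 embryos, 4 female and 1 male. The deletion was in every cell of the embryo, and the ridge was hybridised as whole tissue. Whether the 3 arrays of a genotype are different pools is not stated, and the p-values therefore measure only how far these arrays spread, possibly for technical reasons.

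Retinoic acid is made from vitamin A in successive steps. Retinol travels in blood bound to RBP4, is taken up by cells through STRA6, and is oxidised reversibly to retinaldehyde by retinol and short-chain dehydrogenases. The retinaldehyde dehydrogenases ALDH1A1, ALDH1A2 and ALDH1A3 then make retinoic acid irreversibly. CRABP1 and CRABP2 bind retinoic acid inside the cell, and the CYP26 enzymes destroy it. In the E11.5 ridge region the mesonephros is known as a source of retinoic acid, and CYP26B1 is known for lowering it in the developing testis.

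Upstream sequences are shown for 4 genes, because the data turn on the contrast between Aldh1a1 and Aldh1a2, on Aldh1a7, a close copy of Aldh1a1 that changed with it, and on Cyp26a1, a gene known to be induced by retinoic acid. Each is the 250 bases before a transcription start in RefSeq (GRCm38.p6), written in the direction of the gene. Capitals mark ATGCAAAT, the octamer motif, in the first 3, and in Cyp26a1 a direct repeat of TGAACT with a spacer of 5 bases, the form of a retinoic acid response element. They lie at chr19:20601718-20601967 (plus strand) for Aldh1a1, at chr19:20727557-20727806 (minus strand) for Aldh1a7, at chr9:71215539-71215788 (plus strand) for Aldh1a2 and at chr19:37697558-37697807 (plus strand) for Cyp26a1.
Aldh1a1: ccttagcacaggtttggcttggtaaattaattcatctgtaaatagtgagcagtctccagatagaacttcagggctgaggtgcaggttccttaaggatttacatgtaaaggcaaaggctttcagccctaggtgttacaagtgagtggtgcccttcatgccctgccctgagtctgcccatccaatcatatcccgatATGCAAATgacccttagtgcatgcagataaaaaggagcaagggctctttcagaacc
Aldh1a7: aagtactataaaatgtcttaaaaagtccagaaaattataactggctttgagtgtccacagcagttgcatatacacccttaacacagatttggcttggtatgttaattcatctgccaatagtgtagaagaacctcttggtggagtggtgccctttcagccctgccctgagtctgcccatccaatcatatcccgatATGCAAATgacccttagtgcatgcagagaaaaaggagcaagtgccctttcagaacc
Aldh1a2: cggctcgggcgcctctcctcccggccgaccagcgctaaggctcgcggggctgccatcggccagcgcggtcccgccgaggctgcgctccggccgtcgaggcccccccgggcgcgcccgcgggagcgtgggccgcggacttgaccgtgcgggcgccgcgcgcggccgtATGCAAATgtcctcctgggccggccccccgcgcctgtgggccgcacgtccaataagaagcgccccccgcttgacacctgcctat
Cyp26a1: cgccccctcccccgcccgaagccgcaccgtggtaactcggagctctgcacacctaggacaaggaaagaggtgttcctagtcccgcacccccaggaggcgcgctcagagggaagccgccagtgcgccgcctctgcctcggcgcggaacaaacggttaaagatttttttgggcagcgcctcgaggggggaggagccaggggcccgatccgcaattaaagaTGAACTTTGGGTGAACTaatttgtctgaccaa

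The upstream sequence of Aldh1a1 was closer to that of Aldh1a7 than to that of Aldh1a2. Aldh1a1 and Aldh1a7 were identical at 185 of 228 aligned bases (81.1%, with 44 gap bases), and they shared an unbroken run of 65 bases that began 94 bases before each start. Aldh1a1 and Aldh1a2 were identical at 134 of 205 aligned bases (65.4%, with 90 gap bases), and the longest run they shared was 10 bases. Gap bases were left out of these percentages. No unrelated sequences were aligned, so how much identity such an alignment gives by itself is not known here. G and C made up 46.4% of the Aldh1a1 sequence, 43.2% of that of Aldh1a7 and 77.6% of that of Aldh1a2, against a median of 52.4% over 32851 such sequences. The Aldh1a2 sequence held 40 CpG dinucleotides and those of Aldh1a1 and Aldh1a7 held 1 each. In the RefSeq gene table no other gene lay between Aldh1a1 and Aldh1a7. Of the 2 starts that RefSeq lists for Aldh1a1, the one nearer to Aldh1a7 is shown.

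Motifs were searched on both strands in windows of 250 bases before to 50 after each listed start, which existed for 7 of the 9 genes and not for Aldh1a3 and Crabp2. The direct repeat of AGTTCA with a spacer of 5 bases, which reads as TGAACT on the strand shown, was found in the Cyp26a1 window, 32 to 16 bases before the start, and in 8 of all 32851 windows (0.0244%). The same repeat of AGGTCA and GCGTGGGCG, GCGTGGGAG and GCGGGGGCG, sites described for WT1 and the related EGR factors, matched no window of these genes or of Aldh1a7. They were found in 0.00913%, 0.612%, 0.472% and 2.91% of all windows. The octamer, searched after the sequences had been seen, lay 56 to 49 bases before the start in Aldh1a1 and in Aldh1a7 and 84 to 77 bases before it in Aldh1a2, and in 1.74% of all windows. None of these matches overlapped another. A match is a string of letters and shows no binding.

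The knockout differed from wild type in 5 of the 8 measured genes. Aldh1a1 fell and Aldh1a2, Crabp1, Crabp2 and Rbp4 rose (limma, adjusted p under 0.05), while Aldh1a3, Cyp26a1 and Stra6 did not pass. Over the whole array 41.3% of the 15066 tested probes passed, 24.1% as higher and 17.2% as lower. WT and KO arrays did not overlap for 7 of the 8 genes, against 52.8% of tested probes. Both a call and a change of 2-fold or more were reached by 2 of the 8 genes, Aldh1a1 (lower) and Rbp4 (higher). The same rule was met by 4.69% of tested probes, by 3.12% as lower and by 1.57% as higher. The median log2 change of the 8 genes was 0.41 and that of all tested probes 0.09, and after quantile normalization they were 0.18 and 0.03. Since the genes were chosen with earlier results of these data known, the shares over all probes give a scale and not a test. As a check of the labels, the brighter Wt1 probe read 44.1, 43.6 and 39.1 on the WT arrays and 14.3, 15.7 and 14.2 on the KO arrays. The signal was thus lower in KO but not absent, at 34.9% of that of WT. The dimmer Wt1 probe had means of 0.855 in WT and 0.289 in KO. What the remaining signal comes from was not tested.

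**Figure D1:**
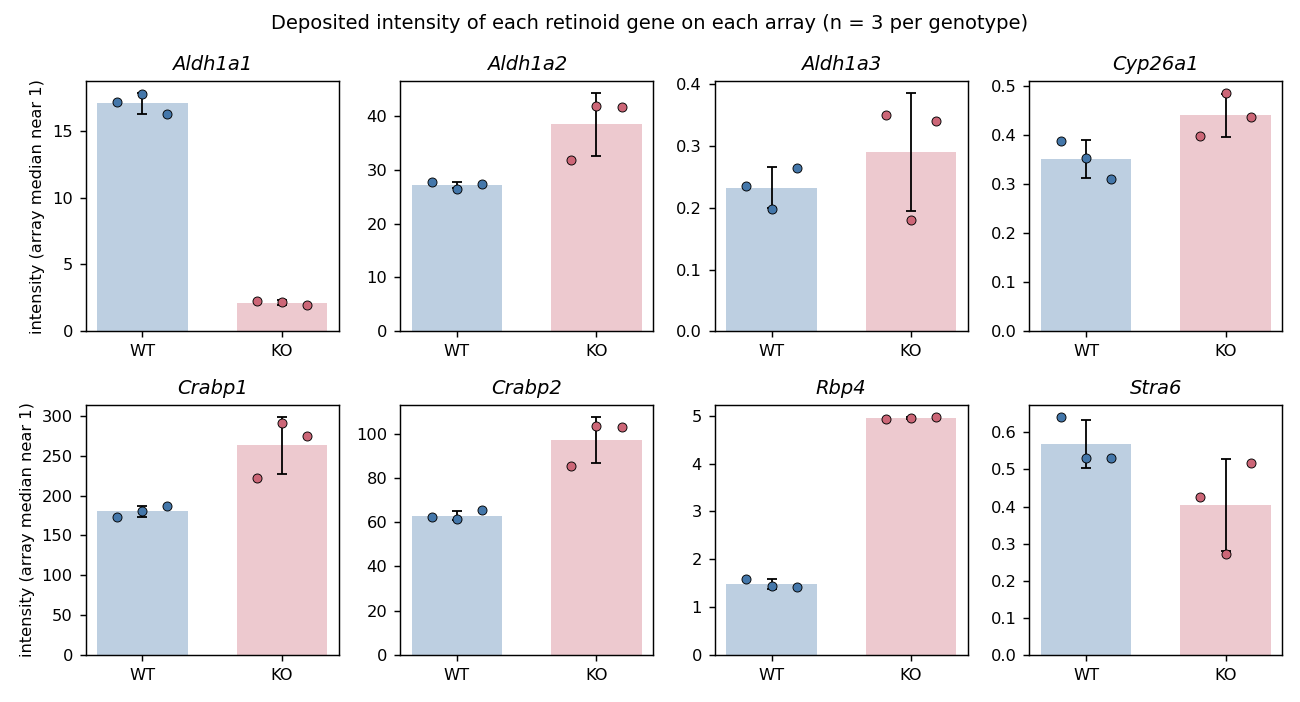
Deposited intensity (linear, array median near 1) of the 8 measured genes, with a point for each array, a bar for the mean and a line for the SD, in WT and KO (n = 3 each). Aldh1a1 falls from 17.1 to 2.13, Rbp4 rises from 1.48 to 4.96, and the first KO point lies lowest for Aldh1a2, Crabp1 and Crabp2. The scales differ between panels.

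Aldh1a1, a cytosolic retinaldehyde dehydrogenase, read 17.1, 17.8 and 16.2 on the WT arrays and 2.24, 2.22 and 1.93 on the KO arrays. The lowest WT value was far above the highest KO value. Means of 17.1 ± 0.784 in WT and 2.13 ± 0.174 in KO (SD, n = 3 each) lie apart by -3.00 ± 0.08 (SE) on the log2 scale (limma, adjusted p = 7.55e-10). The KO signal was 12.5% of that of WT. Only 10 of the 15066 tested probes had a lower log2 change. In whole tissue, fewer cells of a type and less RNA per cell cannot be told apart, and this holds for every change given here.

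Aldh1a2 encodes the retinaldehyde dehydrogenase that makes most of the retinoic acid of the early embryo. Its probe read 27.6, 26.5 and 27.4 in WT and 31.7, 41.9 and 41.7 in KO. All KO arrays were above all WT arrays, and KO array 1 lay nearest to them. The means of 27.2 ± 0.623 and 38.4 ± 5.81 (SD, n = 3 each) differed 1.40-fold, by 0.49 ± 0.10 (SE) on the log2 scale (limma, adjusted p = 0.00238). Under quantile normalization the KO arrays read 30.7, 37.5 and 38.3, the WT arrays 29.2, 27.9 and 30.1, and the log2 change was 0.28 (adjusted p = 0.0248).

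Aldh1a3, the retinaldehyde dehydrogenase known from eye and nose, was dim on every array. It read 0.235, 0.198 and 0.265 in WT and 0.351, 0.181 and 0.341 in KO, close to the filter limit of 0.217. The groups overlapped, and the log2 change was 0.27 with a 95% interval from -0.62 to 1.16 (limma, adjusted p = 0.623). That interval holds a rise of the size seen for Aldh1a2, so a difference from it was not detectable at this signal.

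The carriers inside the cell, Crabp1 and Crabp2, were among the bright probes of the array. Crabp1 read 172, 181 and 187 in WT and 222, 291 and 275 in KO. Crabp2, which delivers retinoic acid to its nuclear receptors, read 62.1, 61.3 and 65.4 in WT and 85.3, 103 and 103 in KO. In both genes every KO array was above every WT array, and KO array 1 was the lowest of the KO arrays. The log2 change was 0.54 ± 0.10 (SE) for Crabp1, or 1.45-fold (adjusted p = 0.00118), and 0.62 ± 0.09 for Crabp2, or 1.54-fold (adjusted p = 0.000156, both limma).

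The scaling of bright probes bore on these 3 increases. The 1883 brightest tested probes had a median log2 change of 0.26 on the deposited scale, and of -0.00024 after quantile normalization and 0.03 after cyclic loess. Aldh1a2, Crabp1 and Crabp2 were all brighter than 92.9% or more of the probes. After quantile normalization the change of Crabp1 was 0.15 (adjusted p = 0.159) and no longer passed, and after cyclic loess it was 0.18 (adjusted p = 0.112). That of Crabp2 was 0.35 (adjusted p = 0.00365) and 0.36 (adjusted p = 0.00308), still past the threshold. Over those bright probes the median difference from the WT mean was 0.22 on KO array 1, 0.30 on KO array 2 and 0.27 on KO array 3.

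**Figure D2:**
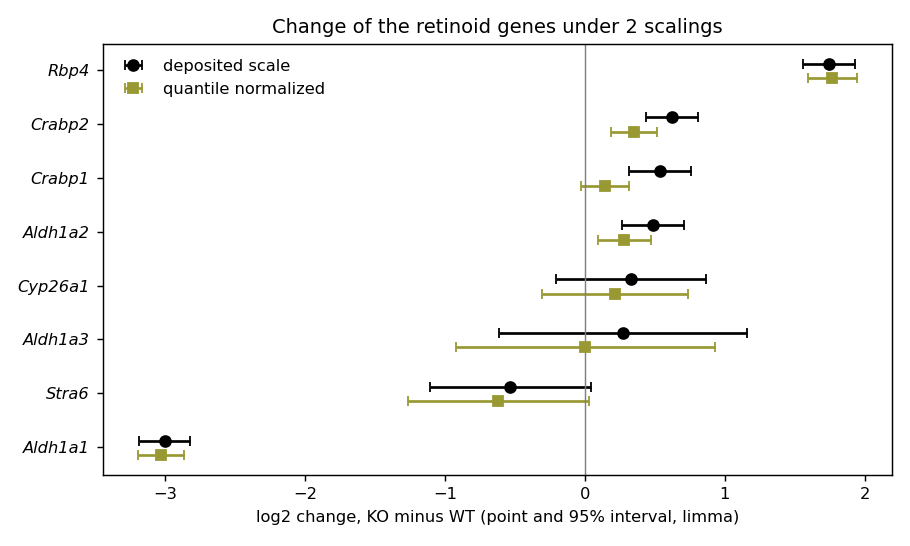
Log2 change from WT to KO of the 8 genes with 95% intervals from limma, on the deposited scale (black circles) and after quantile normalization (olive squares). Aldh1a1 and Rbp4 stay at -3.00 and -3.03 and at 1.75 and 1.77, while Crabp1 moves from 0.54 to 0.15.

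Rbp4, the blood carrier of retinol, gave the clearest increase. It read 1.59, 1.44 and 1.41 in WT and 4.94, 4.96 and 4.98 in KO, so that the KO arrays were nearly equal and all above WT. From 1.48 ± 0.0994 in WT it rose 3.35-fold to 4.96 ± 0.0228 in KO (SD, n = 3 each), by 1.75 ± 0.08 (SE) on the log2 scale (limma, adjusted p = 8.49e-08). Of the tested probes, 43 had a higher log2 change. The value hardly moved with scaling, at 1.77 under quantile normalization.

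Stra6, the membrane receptor through which cells take up retinol from RBP4, read 0.642, 0.532 and 0.530 in WT and 0.426, 0.272 and 0.518 in KO. The groups did not overlap, but KO array 3 lay close to the WT arrays. The log2 change was -0.53 with a 95% interval from -1.10 to 0.04 (limma, adjusted p = 0.126). Without KO array 3 it was -0.73 and passed (adjusted p = 0.0493).

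Cyp26a1, which breaks down retinoic acid and is itself induced by it, read 0.389, 0.354 and 0.312 in WT and 0.399, 0.487 and 0.438 in KO. The KO arrays were all higher, but by little against the spread of so dim a probe. The log2 change was 0.33 with a 95% interval from -0.21 to 0.87 (limma, adjusted p = 0.307). A rise as large as that of Rbp4 or a fall as large as that of Aldh1a1 lies outside this interval.

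Aldh1a1 was then set against each of the other genes on the same array, where a single scaling factor per array cancels but a shift that depends on brightness does not. For all 7 pairs every KO array had a lower log2 ratio than every WT array. All 7 use the same Aldh1a1 values, so they are not separate evidence of its fall. The ratio of Aldh1a1 to Aldh1a2 was -0.69, -0.57 and -0.75 (log2) on the WT arrays and -3.82, -4.24 and -4.43 on the KO arrays, a difference of -3.49 ± 0.19 (SE, n = 3 each), or 11.3-fold. The difference was -3.54 ± 0.17 against Crabp1, -3.63 ± 0.16 against Crabp2 and -4.75 ± 0.09 against Rbp4. It was -3.27 ± 0.38 against Aldh1a3, -3.33 ± 0.13 against Cyp26a1 and -2.47 ± 0.34 against Stra6. Each pair had p = 0.1 in an exact two-sided permutation test, also after adjustment over the 7 pairs, which is the smallest p that 3 arrays against 3 can give and cannot pass the threshold. These ratios describe how far the changes differed on these arrays and say nothing on the relative level of the genes.

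**Figure D3:**
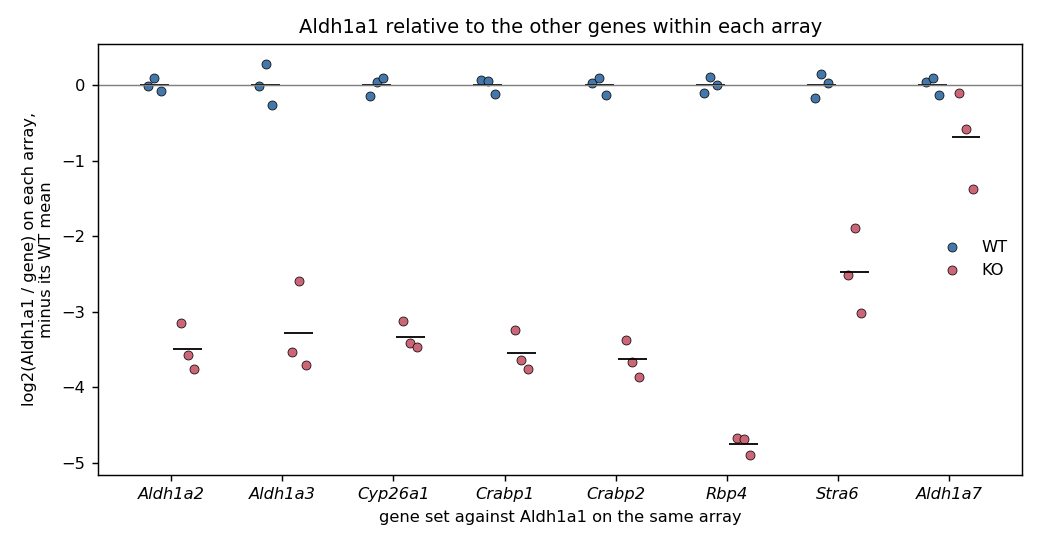
Log2 ratio of Aldh1a1 to each other gene on the same array, minus the WT mean of that ratio, with a point for each array and a black line for each group mean (WT blue, KO red, n = 3 each). The 7 retinoid genes show KO means from -2.47 to -4.75, and Aldh1a7 shows -0.69.

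Aldh1a7 was the only other aldehyde dehydrogenase of the 15 on a further list that fell by more than 4-fold. It read 1.49, 1.50 and 1.59 in WT and 0.216, 0.298 and 0.446 in KO, with no overlap. It fell 4.98-fold, a change of -2.32 ± 0.23 (SE) on the log2 scale (limma, adjusted p = 1.54e-05). The log2 ratio of Aldh1a1 to Aldh1a7 differed by -0.69 ± 0.37 (SE, n = 3 each) between the genotypes, and by -0.98 without KO array 1 and -0.35 without KO array 3. The ratios of the genotypes overlapped, with 3.37 on KO array 1 and 3.35 on WT array 3, and the exact two-sided permutation test gave p = 0.2. That test cannot pass the threshold with 3 arrays against 3, so whether the genes changed alike was not settled. The KO values of Aldh1a7 also lay near the filter limit of 0.217, and so low a signal limits how large a fall can be measured. The mouse genes are near copies, and the probe sequences were not given in the sources used here, so the signal of a probe may include RNA of the other gene.

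The other aldehyde dehydrogenases act mostly on other aldehydes. Of the 15 tested, 5 fell, 1 rose and 9 did not pass, where 17.2% of all tested probes fell and 24.1% rose. The list had the same counts under quantile and cyclic loess normalization and a median log2 change of -0.05 (-0.26 under quantile normalization). Aldh1b1, a mitochondrial enzyme close in sequence to the ALDH1A group, read 2.84, 2.85 and 2.82 in WT and 0.848, 0.887 and 0.899 in KO. It fell 3.23-fold (log2 change -1.69 ± 0.09, SE, adjusted p = 2.38e-07). Aldh3a2, which oxidises fatty aldehydes, fell 1.56-fold, Aldh9a1 1.54-fold and Aldh18a1, of proline synthesis, 1.41-fold. The call of Aldh18a1 ended without any 1 of the WT arrays, without KO array 1, without the filter on dim probes and without the intensity trend, at adjusted p from 0.0628 to 0.102 (limma). The member that rose was Aldh5a1, of GABA breakdown, from 16.3 ± 0.813 to 21.7 ± 2.97 (adjusted p = 0.00629), named after its values were seen. Besides Aldh1a1, the genes with the largest falls were thus Aldh1a7 and Aldh1b1, and Aldh1a2 was not among those that fell.

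**Figure D4:**
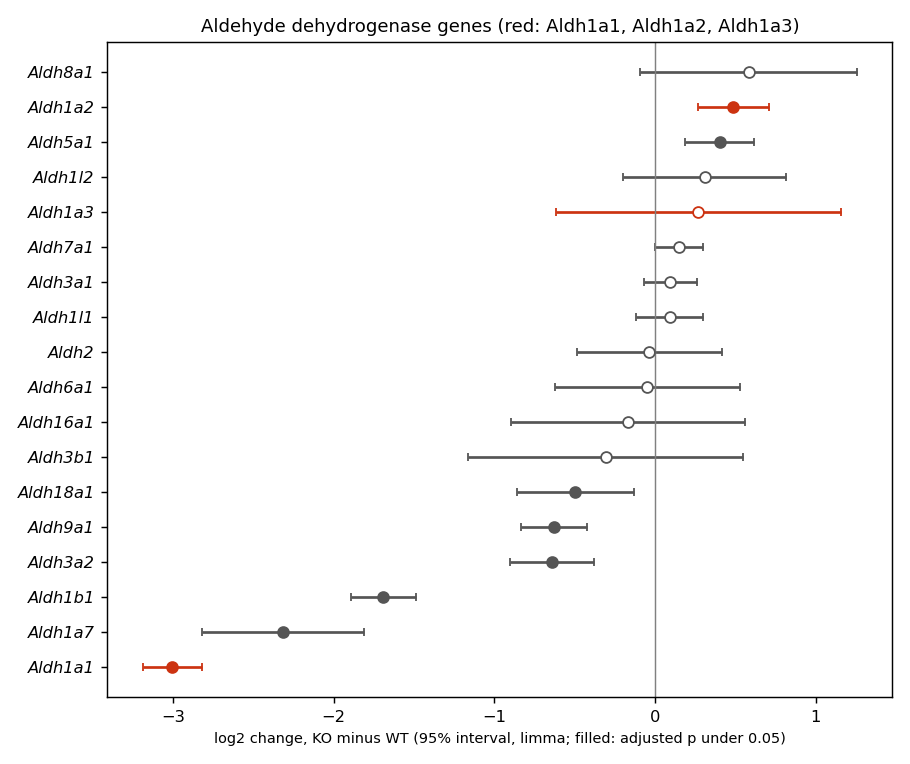
Log2 change from WT to KO of the 18 aldehyde dehydrogenase genes with 95% intervals from limma, with Aldh1a1, Aldh1a2 and Aldh1a3 in red and filled points for adjusted p under 0.05. Aldh1a1 at -3.00, Aldh1a7 at -2.32 and Aldh1b1 at -1.69 lie apart from the others, and Aldh1a2 lies at 0.49.

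Other genes of retinoid handling were followed on a list of 30, most of them of the steps before retinaldehyde or of storage, with the carriers Ttr and Fabp5 and with Aldh8a1, a retinal dehydrogenase also on the list above. Of the 30, 26 had a probe and 22 were tested. Of these, 6 rose, 4 fell and 12 did not pass, shares near the 24.1% of all tested probes that rose and the 17.2% that fell. The counts were 5 and 6 under quantile and cyclic loess normalization. Rdh10, the retinol dehydrogenase of the embryo, read 4.38, 4.18 and 4.12 in WT and 5.05, 4.87 and 5.13 in KO. It rose 1.19-fold (log2 change 0.25 ± 0.07, SE, adjusted p = 0.0195 in limma), and missed the threshold without WT array 2, WT array 3 or KO array 3 (adjusted p from 0.0661 to 0.0753). Dhrs3, which turns retinaldehyde back to retinol and is known to be induced by retinoic acid, rose 1.30-fold from 6.51 ± 0.503 to 8.42 ± 0.0641 (adjusted p = 0.00253). The short-chain dehydrogenase genes Rdh14 and Dhrs7 fell 1.48-fold and 1.44-fold, and Retsat, a retinol saturase, fell 1.38-fold. Rdh14 missed the threshold without the intensity trend (adjusted p = 0.0511), and Retsat missed it by little without WT array 2.

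Rbp4 in blood is bound to transthyretin, the product of Ttr, and both probes were higher in KO. Ttr read 0.496, 0.696 and 0.573 in WT and 3.17, 4.16 and 3.92 in KO, without overlap. It rose 6.40-fold (log2 change 2.68 ± 0.14, SE, adjusted p = 2.03e-07 in limma). Of the 12 hepatocyte and plasma protein markers, Ttr among them, 7 were tested. Ttr was the only one that rose, Apoa1 fell from 1.73 ± 0.251 to 1.27 ± 0.114 (adjusted p = 0.0154) and 5 did not pass. Without WT array 2 the adjusted p of Apoa1 was 0.0922. Afp, the main plasma protein gene of the fetal liver, read 0.939, 0.876 and 0.732 in WT and 1.29, 0.480 and 0.720 in KO, with overlap. The summed level of the list was 6.29 to 6.74 in WT and 8.75 to 9.66 in KO, of which Ttr made the means 0.588 and 3.75. Fga and Serpina1a lay below the filter limit, and no marker was at or below 0 on all arrays. Alb, Apob and Hnf4a were not listed with a probe and were not analysed here. Among the tested markers Apoa2 (means of 0.280 and 0.187) and Fgb (0.369 and 0.433) were dim.

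**Figure D5:**
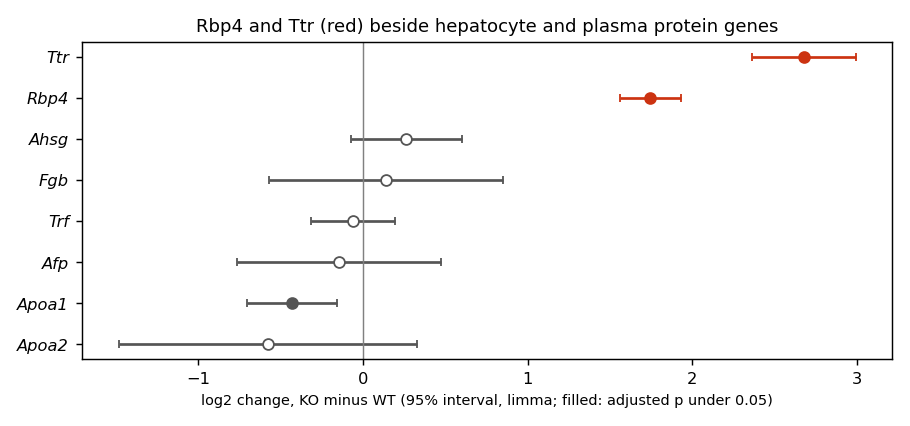
Log2 change from WT to KO of Rbp4 and of the 7 tested hepatocyte and plasma protein genes, with 95% intervals from limma, Rbp4 and Ttr in red and filled points for adjusted p under 0.05. Ttr at 2.68 and Rbp4 at 1.75 stand above the other genes, of which Apoa1 at -0.43 is the only one that passed.

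Nuclear receptors carry the retinoic acid signal to genes, with the help of cofactors. Of 8 tested genes 3 rose, 2 fell and 3 did not pass, where 24.1% of all tested probes rose and 17.2% fell. Under cyclic loess 2 rose and 2 fell. Rara, which encodes the retinoic acid receptor alpha, read 4.60, 4.79 and 5.78 in WT and 7.57, 5.77 and 6.06 in KO. The groups overlapped by a small margin, and the log2 change was 0.35 ± 0.12 (SE, adjusted p = 0.0299 in limma). The call ended under cyclic loess, without the intensity trend and without WT array 1 or 2, at adjusted p from 0.0546 to 0.125. Rxrb, a partner receptor, fell from 0.701 ± 0.0532 to 0.436 ± 0.0883 (adjusted p = 0.0178), a call lost without any 1 of the WT arrays (adjusted p from 0.0503 to 0.0831).

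Rxrg had a log2 change of 0.15 (adjusted p = 0.251). Rarg and Rxra lay below the filter limit, with means of 0.155 and 0.162 in WT and 0.272 and 0.200 in KO. The coactivator genes Ncoa1 and Ncoa3 rose 1.30-fold and 1.22-fold, and Nrip1, a corepressor gene, fell 1.35-fold from 1.93 ± 0.0888 to 1.43 ± 0.0887 (adjusted p = 0.00419). Ncoa1 missed the threshold without the intensity trend or WT array 3 (adjusted p = 0.0645 and 0.0590), and Ncoa3 without WT array 2 (0.0694). Rarb was not listed with a probe and was not analysed here.

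Of 14 tested genes known to respond to retinoic acid, 8 rose, 1 fell and 5 did not pass, against 24.1% higher and 17.2% lower among all tested probes. Under quantile and cyclic loess normalization the counts were 7 and 2. The list's median log2 change was 0.39, and 0.30 after quantile normalization, where all tested probes had 0.09 and 0.03. This list was also chosen with earlier results of these data known, so an excess over those shares is a description only. Hoxb1, a homeobox gene of the hindbrain and gut, read 1.04, 1.05 and 1.01 in WT and 2.59, 3.33 and 3.13 in KO, and rose 2.89-fold (adjusted p = 1.52e-06 in limma). Isl1 rose 1.89-fold from 7.98 ± 0.472 to 15.1 ± 1.43, Nr2f1 1.86-fold from 39.7 ± 2.29 to 74.0 ± 7.91, Meis2 1.66-fold and Cdx1 1.54-fold, the last on its brighter probe. Nr2f1 and Meis2 were bright, and their log2 changes of 0.90 and 0.73 became 0.65 and 0.50 under quantile normalization, still past the threshold. The gene that fell was Nrip1. Genes were counted by their brightest probe, and for Nr2f2, an orphan nuclear receptor gene, the probes disagreed. Its brighter probe had a log2 change of 0.08 and did not pass, and the dimmer one fell 1.65-fold (adjusted p = 0.000192 in limma). Isl1 is also a marker of neurons, and whether retinoic acid changed was not measured.

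The carriers have relatives that bind fatty acids. On a list of 11 such genes 8 were tested, of which 3 rose and none fell, where 24.1% of all tested probes rose and 17.2% fell. Under quantile and cyclic loess normalization 2 rose. Fabp7, of neural progenitors and glia, read 4.95, 5.48 and 4.87 in WT and 12.7, 14.2 and 14.2 in KO and rose 2.69-fold (adjusted p = 2.76e-07 in limma). Fabp3 rose 1.46-fold. Fabp5, which can also carry retinoic acid, read 194, 193 and 190 in WT and 237, 301 and 283 in KO. Like Crabp1 it was bright, its KO array 1 was the lowest of the KO arrays, and its log2 change of 0.50 (adjusted p = 0.00107) became 0.11 under quantile normalization (adjusted p = 0.231) and 0.14 under cyclic loess (adjusted p = 0.140).

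Marker lists of the cell types of the ridge differed in their counts. They are to be read against the 24.1% of all tested probes that rose and the 17.2% that fell. Of 9 tested gonadal primordium genes 7 fell and none rose. Sums here and below cover every listed gene with a full set of values, also those under the filter limit. The summed level of the gonadal list was 51.1 to 53.8 in WT and 12.0 to 12.7 in KO, of which Amhr2 alone made the means 30.6 and 0.480. Of 12 coelomic epithelium and mesothelium genes 4 fell and 2 rose, with sums of 75.9 to 76.7 and 77.0 to 78.2. Krt18, which did not pass, made the means 27.2 and 28.5 of these sums, and Tcf21, which rose, made 19.7 and 25.5. The 4 that fell were Muc16 (means of 1.96 and 0.150), Krt8 (1.67 and 0.618), Krt19 (6.23 and 3.81) and Gata6 (4.79 and 2.05). In KO Muc16 lay below the filter limit of 0.217 and was tested only through its WT values, as was Zfpm2 of the gonadal list. Such a selection favours a fall. Under quantile normalization 5 of the 12 fell. Of 5 nephric duct and tubule genes 2 rose and 1 fell, with sums of 26.9 to 28.5 and 32.2 to 35.1. Their part in the fall of Aldh1a1 was not tested.

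Marker lists of neighbouring tissues were counted in the same way. Of 9 somite and skeletal muscle genes 7 rose and none fell on the deposited scale, with sums of 17.8 to 19.0 in WT and 33.3 to 35.7 in KO, and 1 fell under cyclic loess. Of 10 neural crest and neuron genes 9 rose and none fell, with sums of 34.9 to 36.1 and 72.5 to 74.4. One of them, Dcx, rose on its brighter probe (log2 change 1.73). Its dim second probe, with means of 0.250 and 0.269, had a change of -0.03 and did not pass (limma, adjusted p = 0.970). Of 3 tested neural tube genes 2 rose, with sums of 2.36 to 2.57 and 30.1 to 33.6, of which Zic1 made the means 1.51 and 29.5. The other, Dbx1, with means of 0.0982 and 1.40, was likewise below the filter limit of 0.217 in WT and tested through its KO values. Sox2, Olig2 and Neurog2 lay below the limit and were not tested. Of 6 gut endoderm and pancreas genes 2 rose and 1 fell, with sums of 16.9 to 18.3 and 28.7 to 30.4. The genes that rose were those of the hormones Pyy, with means of 1.09 and 11.52, and Gcg, with means of 0.161 and 2.90, while the epithelial gene Epcam fell from 8.70 to 7.25. In WT Gcg lay below the filter limit of 0.217 and was tested only through its KO values, a selection that favours a rise. Pdx1 and Foxa2 lay below the limit and were not tested. No marker of these 4 lists was at or below 0 on all arrays. Their part in the higher Aldh1a2, Crabp1, Crabp2 and Rbp4 signals was not tested.

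Of 7 germ cell genes 5 fell and none rose (sums of 112 to 129 and 42.6 to 43.2), and Ifitm1 alone made 104.6 and 30.4 of the mean sums. The germ cell genes Pou5f1 and Ddx4 had log2 changes of 0.03 and 0.29 and did not pass. Of 5 endothelial genes 3 fell and 1 rose (63.2 to 66.1 and 65.1 to 66.4), the rise ending under quantile and cyclic loess normalization. Of the 3 tested erythroid genes none passed on the deposited scale (1189 to 1239 and 1165 to 1286), and 2 fell under both other scalings.

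The genes whose profile over the 6 arrays came nearest to a retinoid gene were found among 11871 other named, tested probes by the root mean square difference of log2 values, each centred on its own mean. Nearest to Aldh1a1 were Cbln1, Rpp25, Tst, Osr2 and Edn2, at 0.19 to 0.32. Cbln1 read 4.47, 4.40 and 4.25 in WT and 0.757, 0.734 and 0.487 in KO. Osr2, a transcription factor gene of the mesonephros, read 13.8, 13.5 and 12.9 in WT and 2.55, 2.65 and 2.51 in KO. All 5 were lower on every KO array.

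Nearest to Aldh1a2 were Srsf10, Kif18b, Cd81, Coprs and Efs, at 0.02 to 0.04. Like Aldh1a2 these probes were bright, each brighter than 86.0% or more of the probes. On the deposited scale used here the brightest tested probes had a median log2 change of 0.26. Nearness under other scalings was not examined. Srsf10, a splicing factor gene, read 16.5, 15.7 and 16.5 in WT and 18.6, 25.8 and 24.8 in KO, with KO array 1 nearest to WT, as for Aldh1a2. Nearest to Rbp4 were Smoc1, Cpm, Mylpf, Slc38a5 and Fez1, at 0.08 to 0.13. Smoc1, a matricellular protein gene, read 8.84, 8.74 and 8.23 in WT and 25.1, 27.2 and 28.2 in KO. With 2 groups of 3 arrays, such likeness mostly reflects a change of the same size and is a description only.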

How the data were processed

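Biotin-labelled targets made from ridge RNA were hybridised to single-colour CodeLink arrays, as the labels' protocols give it. The deposited values are linear intensities with array medians of 0.956 to 0.966. The authors' software, background correction and flags were not given in the sources used here, and the precision is limited by the number of arrays. Values were floored at 0.0811 (the 5th percentile of positive values) and log2 was taken. No further normalization was applied, since array medians differed by 0.0153 (log2). Probes with a mean above the 25th percentile (0.217) and at least 2 values per genotype were tested with limma 3.58.1 in R 4.3.3 (genotype only, intensity trend, Benjamini-Hochberg adjustment over 15066 probes). The fit was tested on simulated data. Folds are antilogs of the fitted log2 changes. Means ± SD were taken on intensities before flooring.

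Gene names come from the annotation GEO holds for the platform, which gave 1 symbol for 15120 probes, several for 38 and none for 5131. It can be old, and 56 symbols found no match in RefSeq's GRCm38.p6 gene table. A gene is represented by its brightest probe with all values. Lists are given as counts of genes passing in each direction. The genes named are all members, Wt1, set receptor and retinoid genes, the largest changes of each list (up to 5, or up to 2 for markers) and the 5 nearest profiles of Aldh1a1, Aldh1a2 and Rbp4. For marker lists only counts, sums and some of these genes are given. Members and lists were chosen with earlier results of these data known. Alternatives were quantile and cyclic loess normalization, other floors and filters, no intensity trend, a replicate block and leaving out each array.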

Additional observations from a re-analysis of the deposited data

How the results depend on the processing

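Of the 5 calls among the retinoid genes, those of Aldh1a1, Aldh1a2, Crabp2 and Rbp4 held in all alternatives run, and so did the directions of all 8 genes wherever they were tested. Adjusted p (limma) was at most 7.86e-05 for Aldh1a1, 0.0284 for Aldh1a2, 0.00666 for Crabp2 and 0.000227 for Rbp4. Crabp1 lost its call at a log2 change of 0.15 under quantile and 0.18 under cyclic loess normalization, where bright probes no longer shifted as a group. With 1 array left out, the change of Stra6 ran from -0.73 to -0.27 and the number of genes called lower from 1 to 2. The differences between the change of Aldh1a1 and that of the 7 other genes kept their sign, with values from -4.81 to -2.20.

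Replicate numbers did not pair the arrays: the correlations of same-numbered deviations were -0.00074, -0.022 and -0.0059. With the replicate number as a block, 6019 probes were called against 6221, and 4 retinoid genes rose and 1 fell as before. Over the array 4789 to 7317 probes were called with 1 array left out, most without KO array 1. The split was 3043 higher and 2953 lower under quantile and 2970 and 3028 under cyclic loess normalization, against 3625 and 2596 on the deposited scale. Aldh1a3, Cyp26a1 and Stra6 are dim, which limits the size of change that could be detected, and none of these 3 passed a filter at the median probe, so they have no value there.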
